A study of Homo sapiens with 2 samples.

Results

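Binding of ATF1 was examined at 8 genes that encode transcription factors of the endoplasmic reticulum (ER) stress response and their relatives: ATF6, ATF6B, XBP1, CREB3, CREB3L1, CREB3L2, CREB3L4 and CREBZF. They were chosen by gene name, and the ER stress sensors were set apart. The peak table of the ATF1 library holds 15064 peaks under 15064 different gene names, and 6 of the 8 genes have a row of their own. ATF6 and CREB3L4 have none. Of 15811 protein-coding genes with a start site in the reference used, 62.2% had a row.

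The cells were HCT116, an established human colon adenocarcinoma line, grown in medium with 10% fetal bovine serum and given ATF1 that carried a 3xFlag tag. Chromatin immunoprecipitation (ChIP), in which protein is fixed to DNA and pulled down with an antibody, was done on the tag in 1 library. The other library was input DNA, taken without antibody, and only the ChIP library's peak table was analysed here. The peaks are therefore those of the tagged protein, and none of the sources used here says how it was introduced, what drives it or how its level compares with the cells' own ATF1. No ER stress treatment is named for either library. There was no replicate, so each value below describes 1 library, and no test between conditions could be made. A peak table measures no expression, so the cell line's identity could not be checked against marker genes.

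When unfolded proteins accumulate in the ER, membrane sensors start the unfolded protein response. ATF6 is both a sensor and a transcription factor: it is held in the ER membrane, moves to the Golgi under stress, is cut there, and its freed part enters the nucleus. ATF6B and the CREB3 family (CREB3, CREB3L1, CREB3L2 and CREB3L4) are built and activated in a similar way. XBP1 becomes an active factor after the sensor ERN1 cuts its mRNA in the cytoplasm. CREBZF is a related basic leucine zipper protein without such a membrane anchor, known to bind the cofactor HCFC1. ATF1, a member of the CREB family, binds the cAMP response element (CRE), whose full form reads TGACGTCA and whose half-site reads TGACG. ATF6 with the factor NF-Y binds the ER stress response element (ERSE), which reads CCAAT, then 9 bases, then CCACG.

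Promoter sequences are shown for 4 of the genes, because they hold all the CRE letters found among the 8 and differ in whether a peak lies on them. XBP1 and CREB3 had a peak summit inside the printed stretch, whereas ATF6 and CREB3L2 had no listed peak touching it. Each stretch runs from 250 bases before to 50 bases after a gene start, 5′ to 3′ on the gene's strand, and comes from RefSeq on GRCh38.p14. The positions are chr22:28800520-28800819 (minus strand) for XBP1, chr9:35732416-35732715 (plus) for CREB3, chr1:161766070-161766369 (plus) for ATF6 and chr7:138002037-138002336 (minus) for CREB3L2. Capitals mark the full CRE, the half-site on either strand (TGACG or CGTCA) and the ERSE.
XBP1: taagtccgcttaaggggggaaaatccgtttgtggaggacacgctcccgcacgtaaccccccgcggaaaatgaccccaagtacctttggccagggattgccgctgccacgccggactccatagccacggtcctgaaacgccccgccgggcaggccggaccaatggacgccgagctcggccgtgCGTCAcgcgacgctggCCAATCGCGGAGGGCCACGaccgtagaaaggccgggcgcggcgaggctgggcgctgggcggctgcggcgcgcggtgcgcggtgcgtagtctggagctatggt
CREB3: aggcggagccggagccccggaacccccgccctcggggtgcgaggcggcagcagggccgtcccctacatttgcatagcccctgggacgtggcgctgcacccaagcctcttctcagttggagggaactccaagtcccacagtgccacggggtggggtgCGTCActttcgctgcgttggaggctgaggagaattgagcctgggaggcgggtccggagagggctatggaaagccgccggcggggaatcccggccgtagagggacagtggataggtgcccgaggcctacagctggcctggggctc
ATF6: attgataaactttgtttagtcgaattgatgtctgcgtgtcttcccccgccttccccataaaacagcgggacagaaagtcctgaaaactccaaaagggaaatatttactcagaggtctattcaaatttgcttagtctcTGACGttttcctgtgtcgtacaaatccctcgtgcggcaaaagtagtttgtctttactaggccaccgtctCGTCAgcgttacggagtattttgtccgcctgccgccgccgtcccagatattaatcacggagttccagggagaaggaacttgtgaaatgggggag
CREB3L2: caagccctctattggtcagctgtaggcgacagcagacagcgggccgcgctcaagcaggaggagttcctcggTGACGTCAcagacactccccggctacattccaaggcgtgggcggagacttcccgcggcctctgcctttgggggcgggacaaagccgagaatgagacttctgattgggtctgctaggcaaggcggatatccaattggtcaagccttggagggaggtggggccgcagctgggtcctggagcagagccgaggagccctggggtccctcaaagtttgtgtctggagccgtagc

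The XBP1 summit lay on a CRE half-site. The peak assigned to XBP1 (chromosome 22, 28799554 to 28801409, classed as upstream by the authors) had its summit at 28800635, which is 66 bp before the reference start. The half-site occupies 28800633 to 28800637, so the summit fell on its middle base. An ERSE follows downstream on the gene's strand, at 28800603 to 28800621, with its first base 52 bp before the start and its centre 23 bp from the summit. ERSE letters are rare in such stretches: 23 of 22131 protein-coding promoter windows (0.104%) held one, and XBP1 was the only gene of the 8 among them. Among 2344 protein-coding genes with both a half-site and a listed summit inside a window, 152 (6.48%) had the summit on the half-site, and the median distance was 32 bp (quartiles 11 and 75 bp).

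CREB3 had the strongest peak of the 8 genes by fold enrichment, and its promoter held 1 half-site and no full CRE. The peak (chromosome 9, 35731444 to 35733337, classed as exonic) had its summit at 35732488. That is 178 bp before the reference start but 168 bp inside the gene as the authors' annotation draws it. The half-site lies at 35732572 to 35732576, 86 bp from the summit, and 78.7% of the genes with both features had their summit nearer to a half-site than this.

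The only full CRE found in the windows of the 8 genes was at CREB3L2, where no peak was listed at the start. It lies at chromosome 7, 138002258 to 138002265, with its first base 179 bp before the start, and the nearest listed summit of any gene was 120072 bp from it. Full CREs were present in the windows of 3% of protein-coding genes, against 1 of the 8. Of the 500 promoter windows with a full CRE, 67.4% had a listed summit within 1 kb of the start, against 44.3% of all windows. The lack of a listed peak does not show that ATF1 was absent, since the library's depth is unknown. The table also gives each name 1 row, and how that row was chosen is not stated. The row of CREB3L2 is a peak far inside the gene, so a further peak at its start may be unlisted. ATF6 held 2 half-sites, at 161766207 to 161766211 and 161766276 to 161766280 on chromosome 1, and its nearest summit was more than 16 kb away.

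Half-sites were found in the windows of 4 of the 8 genes, against 34.5% of all protein-coding genes. ATF6B, CREB3L1, CREB3L4 and CREBZF held none in the windows available, although ATF6B and CREBZF had peaks at a start. The related element of the unfolded protein response with the core TGACGTGG was in 0 of the 11 windows of these genes and in 0.764% of all windows. All matches were sought on both strands, a full CRE contains the half-site on each strand, and a match describes letters only.

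**Figure D1:**
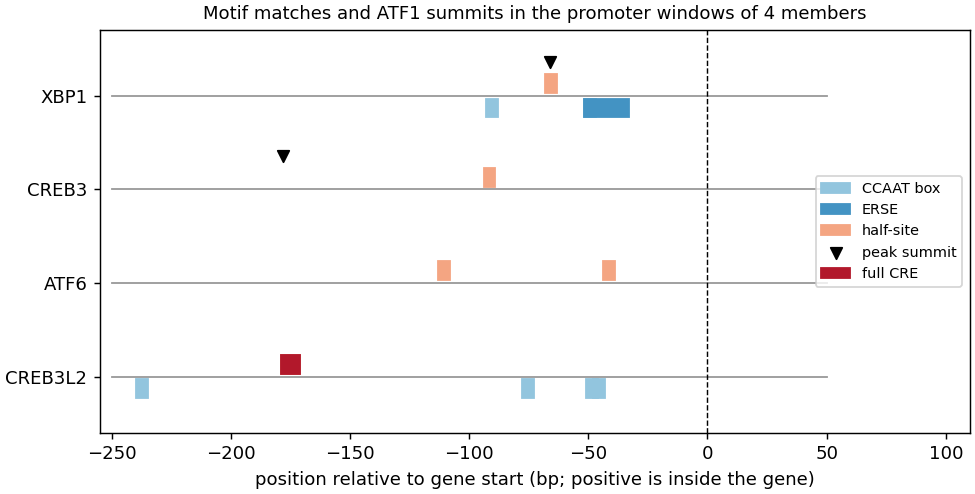
Positions of motif matches (coloured blocks) and of listed peak summits (black triangles) in the promoter windows of XBP1, CREB3, ATF6 and CREB3L2, in bp from the gene start (dashed line). The XBP1 summit stands on the half-site at -66 bp, the CREB3 summit stands 86 bp from its half-site, and the windows of ATF6 and CREB3L2 hold motif matches but no summit; the full CRE of CREB3L2 covers 2 overlapping half-sites.

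Of the 8 genes, 4 had a listed summit within 1 kb of a start: XBP1, CREB3, ATF6B and CREBZF. The share over all protein-coding genes was 50.4%, so the count is near the background. The other 4 genes, ATF6, CREB3L1, CREB3L2 and CREB3L4, had their nearest summit 4676 bp or more from any start in the promoter table. The outer end of the CREB3L4 gene in the reference gene table was nearer to that summit, at 3913 bp. Within the ATF6 pair, ATF6B had a listed start-site peak and ATF6 none, and within the CREB3 family CREB3 had one and the other 3 genes none. CREB3L1 and CREB3L2 have their 1 row elsewhere in the gene, so a further peak at a start may be unlisted. Of the 6 own peaks, 3 had their summit within 1 kb of a reference start (XBP1, CREB3 and ATF6B), as did 49.7% of all listed peaks on chromosomes with reference starts.

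**Figure D2:**
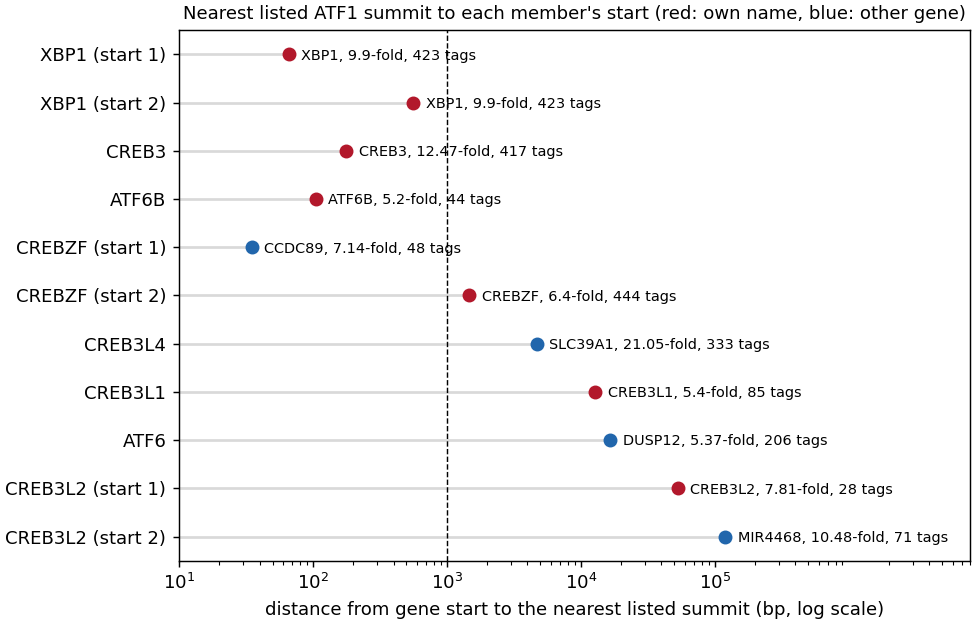
Distance in bp (log scale) from each reference start of the 8 genes to the nearest listed ATF1 summit, with the gene name the authors gave that peak, its fold enrichment and its tags; starts of 1 gene are numbered by distance, red points are peaks under the gene's own name and blue points carry another name. XBP1, CREB3, ATF6B and 1 start of CREBZF lie left of the dashed line at 1000 bp, and the starts of CREB3L4, CREB3L1, ATF6 and CREB3L2 lie between 4676 and 120248 bp.

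In the deposited table each peak carries a count of tags (sequenced fragments in the peak), a score and a fold enrichment over a background that is not specified. Over all peaks the median was 162 tags (quartiles 60 and 310) and 6.97-fold (quartiles 5.20 and 9.76). Intervals on tags are exact 95% Poisson intervals and cover counting error only, and the total depth of the library is unknown. The 6 own peaks had a median of 7.11-fold, close to that of all peaks. They ranged from 5.2-fold to 12.47-fold, and 1 of them, that of CREB3, reached 10-fold, against 23.9% of all peaks. All 6 reached 5-fold, as did 77.5% of all peaks.

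XBP1 had 423 tags (interval 384 to 465) over 1856 bp, 9.9-fold enrichment and a score of 499.37. Its fold enrichment was above that of 75.6% of all peaks and of 65.0% of the peaks with a summit within 1 kb of a protein-coding start. CREB3 had 417 tags (interval 378 to 459) over 1894 bp, 12.47-fold enrichment and a score of 1143.18. Its score was above that of 93.0% of all peaks, and its fold enrichment above that of 85.4%. Among peaks with a summit within 1 kb of a protein-coding start, 77.0% had a lower fold enrichment than CREB3 and 79.8% had fewer tags. The tags of the XBP1 and CREB3 peaks differed by less than their counting error, whereas the CREB3 score was the higher of the pair.

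CREBZF had the most tags of the 8 genes, but in a peak of below-median fold enrichment. Its own peak (chromosome 11, 85663596 to 85665748, classed as exonic) had 444 tags (interval 404 to 487), 6.4-fold enrichment and a score of 676.06. By tags it stood above 88.3% of all peaks and by fold enrichment above 42.4%. The summit, at 85665076, was 72 bp inside the start of CREBZF in the authors' annotation. The reference instead gives starts at 85663601 and 85682863, and the summit lay 1475 bp before the nearer of them.

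A separate peak stood at the outer reference start of CREBZF under another gene's name. It was assigned to CCDC89, as a downstream peak, with its summit 35 bp before the CREBZF start and 946 bp from CCDC89. It had 48 tags (interval 35.4 to 63.6) and 7.14-fold enrichment, with a score of 57. This peak makes CREBZF count among the genes with a start-site peak: from rows under a gene's own name alone, 3 of the 8 genes would count, where 41.1% of all protein-coding genes do.

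ATF6B, the paralogue of ATF6, had a small peak at its start. The peak (chromosome 6, 32127505 to 32128622, exonic) held 44 tags (interval 32.0 to 59.1) with 5.2-fold enrichment and a score of 104.35, and its summit was 105 bp inside the gene. Among peaks with a summit within 1 kb of a protein-coding start, whose median was 250 tags, only 3.59% had fewer tags. A stronger peak lay 1983 bp before the ATF6B start. It was assigned to FKBPL and had 64 tags and 19-fold enrichment.

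The peaks of CREB3L1 and CREB3L2, which encode the factors also known as OASIS and BBF2H7, lay deep inside or near the far end of their genes and had scores close to the lowest in the table, which is 50. CREB3L1 had an exonic peak (chromosome 11, 46307424 to 46308695) with 85 tags (interval 67.9 to 105), 5.4-fold enrichment and a score of 54.94. Its summit was 12769 bp inside from the start in the promoter table and 30266 bp from the outer end of the reference gene. CREB3L2 had an exonic peak (chromosome 7, 137879478 to 137880372) with 28 tags (interval 18.6 to 40.5), 7.81-fold enrichment and a score of 51.85. Its summit was 122139 bp from the outer start and 4968 bp from the far end of the gene as the authors draw it. Only 2.30% of peaks had a lower score, although 59.5% had a lower fold enrichment.

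ATF6 and CREB3L4 had no peak under their own name or inside the reference gene. The only listed summit within 20 kb of ATF6 was that of DUSP12, a phosphatase gene, 16535 bp before the ATF6 start, with 206 tags and 5.37-fold enrichment. CREB3L4 had 4 summits within 20 kb of it, assigned to CRTC2, SLC39A1, JTB and RPS27. The SLC39A1 peak had 333 tags and 21.05-fold enrichment, 3913 bp outside CREB3L4, and the JTB peak had 214 tags and 15.75-fold, 3234 bp beyond its other end. Because the table gives each name 1 row and each peak 1 name, a peak near 2 genes is credited to only 1 of them.

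**Figure D3:**
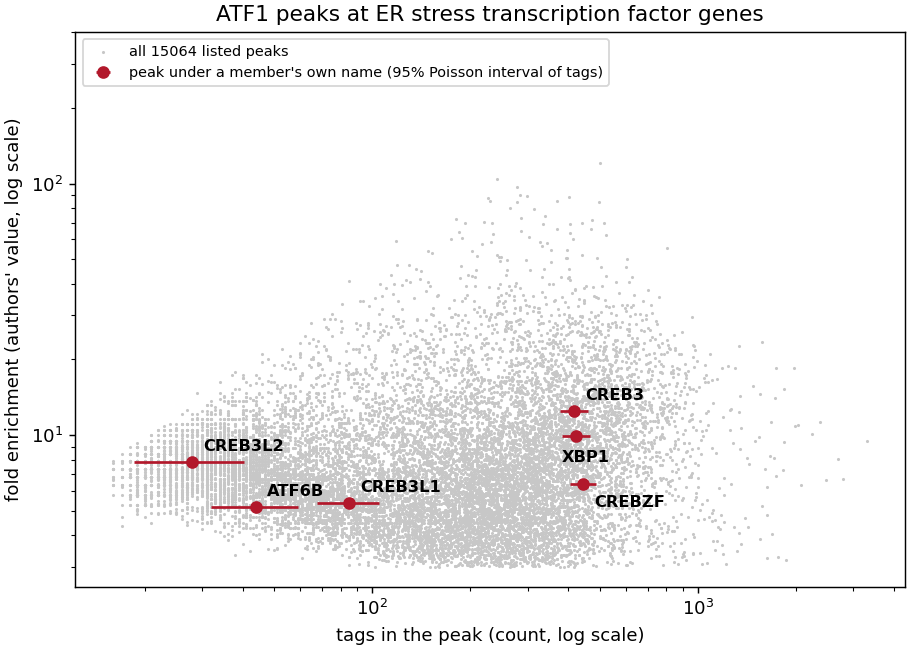
Tags (count) against fold enrichment (the authors' value), both on log axes, for all 15064 listed peaks (grey) and the peaks under the names of 6 of the genes (red, with 95% Poisson intervals of the tags). CREB3, XBP1 and CREBZF stand together between 417 and 444 tags, and CREB3L1, ATF6B and CREB3L2 between 28 and 85 tags.

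By tags the 6 own peaks can be put into 2 sets whose counting intervals do not overlap: CREBZF, XBP1 and CREB3 with 417 to 444, and CREB3L1, ATF6B and CREB3L2 with 28 to 85. The sets were drawn from these tag values, so their separation is a description only. Over all peaks the quartiles were 60 and 310 tags. Within the first set the intervals overlap, so their order by tags cannot be told apart from counting error. In the second set those of ATF6B and CREB3L2 overlap, and that of CREB3L1 lies above both. The first set had longer peaks, 1856 to 2153 bp against 895 to 1272 bp. Per kb of peak the sets had 206 to 228 tags against 31.3 to 66.8. This is no separate check, since tags defined the sets and differ between them far more than the lengths do. By fold enrichment the order was CREB3, XBP1, CREB3L2, CREBZF, CREB3L1 and ATF6B, which mixes the sets.

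**Figure D4:**
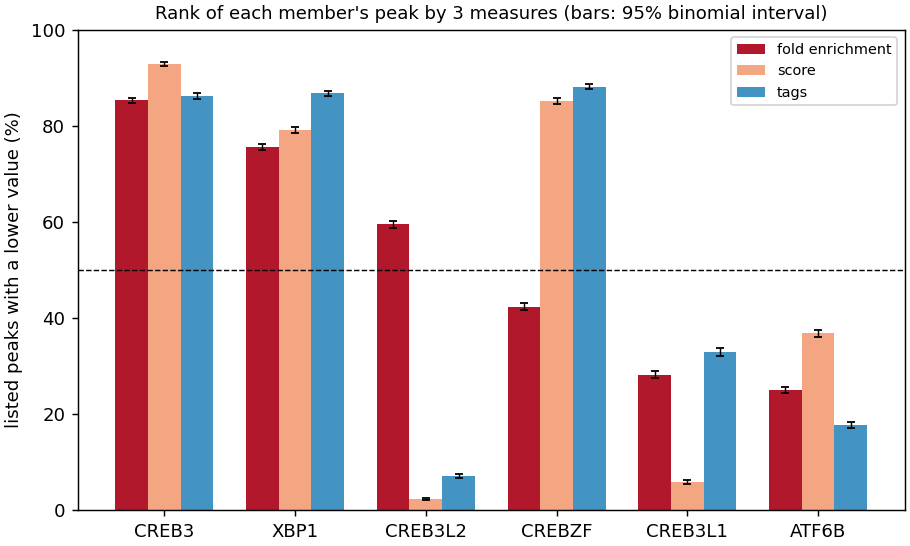
Percentage of all listed peaks with a lower value than the own peak of each of 6 genes, by fold enrichment, score and tags; the bars start at 0, the error bars are 95% binomial intervals over peaks and the dashed line marks 50%. The error bars leave out the uncertainty of each peak's own value, so the ranks are less precise than they look. CREB3 and XBP1 stand above 75% by all 3 measures, CREBZF falls to 42.4% by fold enrichment, and CREB3L2 falls from 59.5% by fold enrichment to 2.30% by score.

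The peaks at the starts of CREB3, XBP1 and ATF6B also lay close to an end of a neighbouring gene. The CREB3 summit was 293 bp before the start of TLN1, which encodes talin and runs the opposite way. TLN1's own row was a peak of 45 tags and 7.01-fold, 28110 bp from that start and apart from the CREB3 summit. In the authors' annotation that summit was 93 bp from a listed end of TLN1 and 168 bp from one of CREB3. The XBP1 summit was likewise nearer to a listed end of ZNRF3, a ubiquitin ligase gene (22 bp), than to one of XBP1 (63 bp). ZNRF3's own row was an intronic peak of 45 tags and 7.53-fold, 35242 bp from the XBP1 summit. The ATF6B summit was 566 bp from the listed end of FKBPL. In each case the neighbour's own row is a different peak. By class, 5 of the 6 own peaks were exonic, as were 43.5% of all peaks, and 1 was upstream.

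Of 4 lists of other genes of the pathway (53 genes), 45 had a reference start and 33 of those had a start-site peak, against 50.4% of all protein-coding genes. The lists were chosen with earlier results of these data known. Their counts and medians therefore describe the listed genes and are no independent evidence about the pathway. Targets of the 8 factors had one at 18 of 23, with a median fold enrichment under their own names of 11.69 against 6.97 over all peaks, and 13 of their 23 rows reached 10-fold, against 23.9% of all peaks. Peaks with a summit within 1 kb of a protein-coding start are a closer comparison for rows at a start. Their median was 7.81-fold and their upper quartile 11.95-fold, so the contrast with all peaks is the wider one. SEL1L, of ER-associated degradation, had 25.2-fold enrichment and 214 tags, and HSPA5, the main ER chaperone, 23.3-fold and 363 tags. DDIT3, the stress factor CHOP, had 21.36-fold, and MANF, a secreted ER stress protein, 20.07-fold. By fold enrichment CREB3 and XBP1, the highest of the 8 genes on that measure, were below all 4 of these, while by tags both were above all of these but MANF (485 tags).

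The sensors and the machinery that splices XBP1 mRNA had a start-site peak at 5 of 6 genes (50.4% of all protein-coding genes), and 5 of 6 own rows reached 10-fold (23.9% of all peaks). Here too, peaks near a start, with an upper quartile of 11.95-fold, are the closer comparison. The exception in both counts, named after its values were seen, was the sensor ERN1, with 7.72-fold enrichment and 37 tags in a peak 81137 bp from its start. C2orf49 had 45.72-fold enrichment, RTRAF 20.24-fold, the RNA ligase RTCB 12.08-fold and DDX1 11.15-fold, all of them parts of the tRNA ligase complex. The list of Golgi cleavage and related genes had a start-site peak at 4 of 7 genes, near the 50.4% of all genes, with a median of 6.78-fold. SREBF2, a sterol-regulated factor cut by the same proteases as ATF6, had 12.33-fold, INSIG2 10.41-fold and INSIG1 9.87-fold with 1544 tags, while SCAP had 6.78-fold at 55262 bp from its start. Of the proteases themselves, named after their values were seen, MBTPS2 had a 4.76-fold peak 106 bp from its start and MBTPS1 a 5.55-fold peak 64629 bp from it.

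Partners and regulators of the 8 factors had a start-site peak at 6 of 9 genes, against 50.4% of all genes, with a median of 5.93-fold. YY1, which binds ERSE promoters together with ATF6, had 13.38-fold and 1113 tags, and was the only 1 of 10 rows to reach 10-fold, against 23.9% of all peaks. The NF-Y subunit genes NFYA and NFYC had 8.92-fold and 8.38-fold, both within 448 bp of a start, and TBL2 had 7.58-fold at 7783 bp from its start. None of these list counts was tested, and the lists differ in size.

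**Figure D5:**
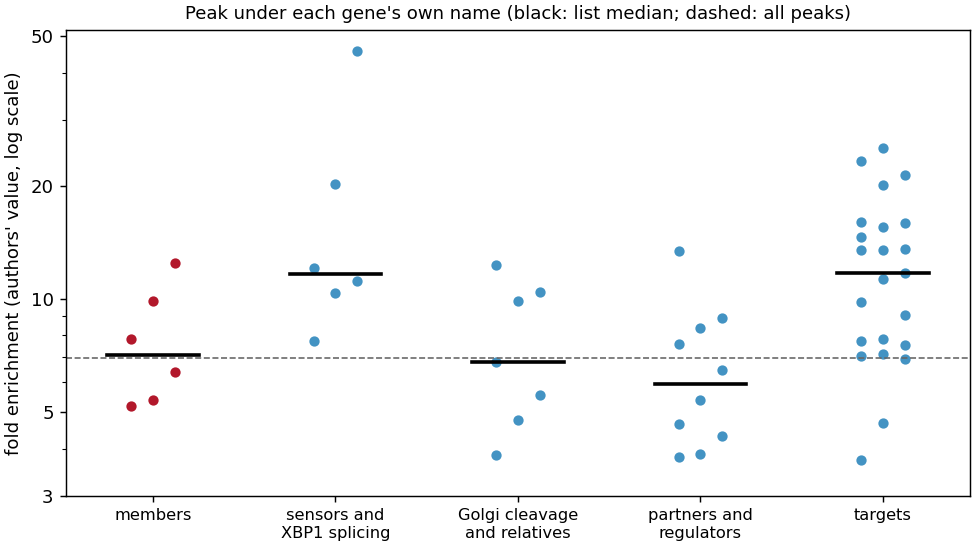
Fold enrichment (the authors' value, log axis) of the peak under each gene's own name, for the 6 listed genes of the 8 (red) and for 4 lists of pathway genes (blue); black lines are list medians and the dashed line is the median of all peaks, 6.97-fold. The targets and the sensor and splicing genes have medians of 11.69-fold and 11.62-fold, and the 6 genes one of 7.11-fold. Peaks with a summit within 1 kb of a protein-coding start have a median of 7.81-fold (not drawn). The lists were chosen with earlier results of these data known.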

How the data were processed

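The ChIP library's peak table was used. The submitters' processing notes name hg38, bedtools, Bowtie2 and CASAVA. Peak caller, control and annotation were not given in the sources used here. The table's columns, per the file headers, are tags (deposited as whole-number counts per peak), fold enrichment (a ratio deposited with no stated background, lowest 3) and score (deposited with no stated basis, lowest 50). They served to describe and rank peaks inside this list. A line without a position was left out.

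Names were matched to RefSeq GRCh38.p14 symbols, then unique older names (93.9% matched). Starts, strands and 300-base windows came from its promoter table: 22131 protein-coding windows, with an entry for all 8 genes. The entry of CREB3L1 does not cover the outer end of that gene. Shares near a start leave out 550 peaks on a chromosome without entries. Distances and motif searches were tested on simulated data. Genes named were the 8, up to 4 with the highest fold enrichment per list, genes starting at their peaks and, added after values were seen, names on the nearest peaks and MBTPS1 and MBTPS2. The genes and lists were chosen with earlier results of these data known. No test was run, as each group has 1 library. Alternatives changed the window, threshold, ranking and motif. Python 3.11.15, numpy 2.4.6, pandas 2.3.3, scipy 1.17.1 and matplotlib 3.10.9 were used.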

Additional observations from a re-analysis of the deposited data

How the results depend on the processing

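The count of genes with a start-site peak was 4 with windows of 500 bp and 2 kb (46.8% and 53.1% of all protein-coding genes), with any overlap of the 1 kb window (53.2%) and with peaks of at least 5-fold (40.9%). It was also 4 with the gene starts of the authors' annotation, a setting chosen after seeing the data. Only genes with a row can count there, so this is 4 of 6, against 58.1% of listed protein-coding genes. It was 5 with a 5 kb window (57.2%), which adds CREB3L4, and 3 with own rows only (41.1%). Among peaks of at least 10-fold it was 1, that of CREB3, where 18.2% of all protein-coding genes had one. Of the 6 own rows, 3 had a score above the median, 6 reached 5-fold (77.5% of all peaks did), and 0 reached 15-fold. The upper quartile of all peaks was 9.76-fold, so a count of 0 among 6 rows says little. The median fold enrichment was 9.9 for the 3 own peaks with a summit within 1 kb of a start, which is the XBP1 value. For all peaks with a summit that near a start it was 7.81. A half-site in place of the full CRE was found in 4 genes, and a full CRE in a window that a peak overlaps in 0. Of all windows with a summit within 1 kb of the start, 3.44% held a full CRE, so a count of 0 is little information. Counting only peaks of at least 10-fold, a setting chosen after seeing the data, 21 of the 45 pathway genes with a reference start had a start-site peak, against 18.2% of all genes. Those pathway lists were themselves chosen with earlier results of these data known. No paired analysis was possible because each group has 1 library. The depth of the library is unknown, so a gene without a row may still be bound. Each name has 1 row, so a gene whose row lies far from its start may have an unlisted peak there.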

Other observations

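The half-sites of XBP1 and CREB3 stood in the same letters. In both windows the half-site is part of GTGACGCAC, read on the strand opposite to the gene, and this run of 9 letters is the longest the sites share. It was looked for after the windows had been read. It was present in 102 of 22131 protein-coding promoter windows (0.461%), of which 67.6% had a listed summit within 1 kb of the start, against 58.8% of windows with a half-site and 44.3% of all windows. The XBP1 and CREB3 windows, from which the letters were taken, both have a peak and are in this count. The share is therefore a description only.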
